A study of Homo sapiens with 12 samples.

Results

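Polyadenylated RNA of 4 genes known from other work as IL-4 and IL-13 induced in human macrophages was followed across a macrophage polarization experiment: TGM2, F13A1, MAOA and CD200R1. They were taken by gene name, each name had 1 row, and they are 4 of the 58907 genes in the deposited count table. The cells were (PPRE)-eGEP-THP-1, derived from THP-1, a line of human monocytic leukaemia. All were first made into macrophages by 48 h with 25 ng/mL phorbol 12-myristate 13-acetate, followed by 24 h of rest. The groups were M2 MCHP (IL-4 and IL-13 at 20 ng/mL each, with MCHP at 100 µM), M2 DMSO (the same cytokines with solvent), M1 MCHP (lipopolysaccharide at 100 ng/mL and interferon gamma at 20 ng/mL, with MCHP at 100 µM) and M1 DMSO (the same agents with solvent). Polarization and MCHP ran together for 24 h. MCHP is monocyclohexyl phthalate, the monoester of a phthalate plasticizer, and the study asked how it acts on polarization. Each group had 3 libraries, which the submitters call biological replicates. The labels do not say whether these were separate cultures, so p-values measure the spread between these libraries, which may be technical. All libraries come from 1 leukaemia-derived line, and no unpolarized group is among them. A higher level in M2 than in M1 therefore cannot be told apart from a lower level in M1.

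IL-4 and IL-13 bind receptors built on the IL-4 receptor alpha chain, which pairs with the common gamma chain IL2RG or with IL13RA1. JAK kinases on these chains phosphorylate STAT6, which enters the nucleus and activates its target genes. In human macrophages such targets include transglutaminases, monoamine oxidase A, lectins, chemokines and arachidonic acid enzymes. TGM2, transglutaminase 2, cross-links proteins between glutamine and lysine residues and takes part in the uptake of dying cells. F13A1 encodes the A subunit of coagulation factor XIII, another transglutaminase, which cross-links fibrin. MAOA encodes the mitochondrial enzyme that oxidizes serotonin and noradrenaline. CD200R1 encodes an inhibitory receptor of myeloid cells that binds CD200 on other cells.

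TGM2 and F13A1 carry the same active-site cysteine, shown here because one enzyme was abundant and the other was almost without reads. Each line gives 63 coding bases, 5′ to 3′, from the GENCODE 29 transcripts, with the codon of that cysteine in capitals. TGM3 and TGM1 are the other family members that were tested.
TGM2 (chromosome 20): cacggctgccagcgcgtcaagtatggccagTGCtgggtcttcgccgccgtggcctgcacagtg
F13A1 (chromosome 6): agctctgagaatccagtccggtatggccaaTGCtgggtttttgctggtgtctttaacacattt
TGM3 (chromosome 20): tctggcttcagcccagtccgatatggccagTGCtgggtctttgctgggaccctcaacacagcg
TGM1 (chromosome 14): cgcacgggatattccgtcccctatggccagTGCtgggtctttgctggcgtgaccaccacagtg
The capitals stand at codon 277 of TGM2, 315 of F13A1, 273 of TGM3 and 377 of TGM1. The bases after that codon encode the conserved tryptophan and its neighbours. Of the 63 bases, F13A1 shares 35 with TGM2, TGM3 shares 39 and TGM1 shares 44. Over whole transcripts, the longest run of identical bases between TGM2 and F13A1 was 14, and between TGM2 and TGM1, TGM3 to TGM7 or EPB42 it was at most 22.

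Depth was 14352202 to 16871233 counts per library, and 15252 genes had enough counts to be tested. Of the 4 genes only TGM2 was among them. Libraries of a group resembled each other, with 1 exception. M2 DMSO replicate 1 differed from replicates 2 and 3 with a chi-square per degree of freedom of 19.9 and 20.8, against 2.22 to 6.67 for all other pairs within a group. Counts of called list genes that use this library are also given without it where they change, and values of TGM2. Macrophage markers fixed as a list were present, with 9 of 11 tested and a summed level of 3353 to 3501 CPM (counts scaled by library size and TMM factors) in M2 MCHP, 3233 to 3784 in M2 DMSO, 3215 to 3313 in M1 MCHP and 3312 to 3337 in M1 DMSO. CD68 had 36 counts in all 12 libraries, and 85.8% of its exonic bases are shared with other annotated genes. MSR1, the other untested marker, shares no exonic base with another annotated gene. The similar sums cover changes both ways. In M2 over M1 in DMSO, edgeR called 2 of the 9 higher and 5 lower, against 20.9% and 21.6% of all genes. On the log2 scale, CD14 stood at -3.21 to -2.99 over the alternatives, LYZ at -2.37 to -2.20 and ITGAM at 1.14 to 1.29. MRC1, the mannose receptor used as a marker of IL-4 treated macrophages, had 2 counts. Of the markers of other cell types, KIT (undifferentiated monocytes), COL3A1 and DCN (fibroblasts) and GP9 (platelets) had no count. Other genes of their lists were present: 7 of 10 for undifferentiated monocytes and 4 of 8 for megakaryocytes and platelets were tested, with sums given further below. In the list for fibroblasts and endothelium, 4 of 10 were tested. PECAM1, an adhesion molecule that leukocytes also carry, had group means of 804.5 to 1116 CPM, the collagen COL1A1 27.6 to 130.1 and VWF, von Willebrand factor, 23.02 to 84.6. The sum of that list was 1182 to 1283 CPM in M2 MCHP, 1178 to 1203 in M2 DMSO, 947.8 to 970.1 in M1 MCHP and 1005 to 1051 in M1 DMSO. Summed dendritic cell markers reached 75.3 to 78.3 CPM in M2 MCHP, 82.2 to 92.3 in M2 DMSO, 75.0 to 79.6 in M1 MCHP and 76.2 to 77.4 in M1 DMSO.

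The 4 genes split into 1 very abundant transcript and 3 at or near 0. TGM2 held 1148277 of the 187332926 counts of the series, while CD200R1 had 39, F13A1 had 1 and MAOA had 0. Among protein-coding genes, 16.8% had no count in these libraries, 19.7% had at most 1 and 33.9% had at most 39. In bulk samples, fewer cells with a transcript and less of it per cell cannot be told apart.

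**Figure D1:**
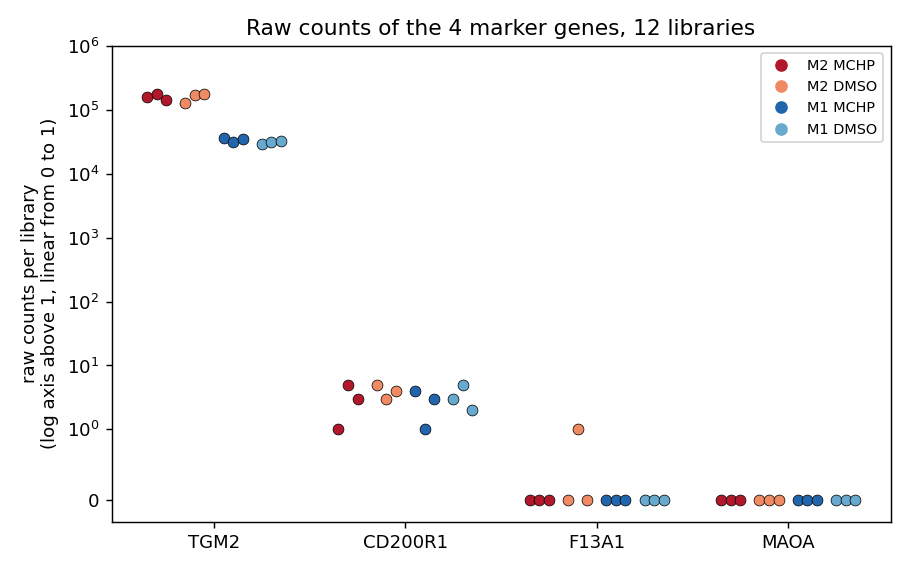
Raw counts per library (vertical axis, logarithmic above 1 and linear from 0 to 1) for the 4 genes, with M2 MCHP, M2 DMSO, M1 MCHP and M1 DMSO from left to right within each gene and 1 point per library. TGM2 lies at 29661 counts or more in every library, CD200R1 at 1 to 5, F13A1 at 0 in all libraries but 1, and MAOA at 0 throughout. The counts are not corrected for transcript length.

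TGM2 (ENSG00000198959) lies on chromosome 20 at 38127387 to 38166578 on the minus strand (hg38), with 8036 exonic bases. Its raw counts were 156669, 174078 and 144854 in M2 MCHP, 127305, 173201 and 174739 in M2 DMSO, 36724, 31678 and 34831 in M1 MCHP, and 29661, 31693 and 32844 in M1 DMSO. Every M2 library was above every M1 library. The exons share 394 bases, 4.9%, with RPRD1B on the other strand, which had 1015 to 1361 counts per library.

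Scaled for depth, the level was 10115, 10104 and 9918.5 CPM in M2 MCHP and 8021.2, 10191 and 9961.2 CPM in M2 DMSO. It was 2299.1, 2300.9 and 2283.8 CPM in M1 MCHP and 2120.1, 2136.4 and 2089.7 CPM in M1 DMSO. The order by group mean was thus M2 MCHP (10050 ± 110 CPM), M2 DMSO (9391 ± 1190), M1 MCHP (2295 ± 9.4) and M1 DMSO (2115 ± 23.7; SD, n = 3 each). The neighbours M2 MCHP and M2 DMSO overlapped, with 1 M2 DMSO library above and 1 far below all M2 MCHP libraries. The M1 MCHP libraries all lay above the M1 DMSO libraries. TGM2 alone made up 1.03% ± 0.0145 of all counts in M2 MCHP, 0.988% ± 0.110 in M2 DMSO, 0.220% ± 0.0018 in M1 MCHP and 0.204% ± 0.00253 in M1 DMSO. In TPM, a unit that also corrects for transcript length, it stood at 4934 ± 61.3 TPM in M2 MCHP, 4789 ± 552 in M2 DMSO, 1078 ± 6.63 in M1 MCHP and 993.9 ± 7.77 in M1 DMSO. By TPM it ranked 18 to 26 among all genes in M2 libraries and 88 to 101 in M1 libraries.

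**Figure D2:**
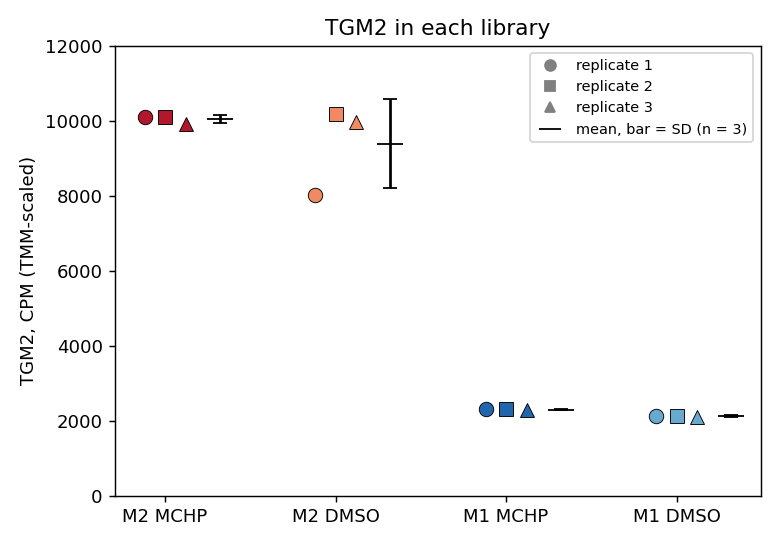
TGM2 in CPM (vertical axis, linear from 0) in each library of the 4 groups, with the symbol giving the replicate and the bar the mean ± SD of 3 libraries. The M2 libraries lie between 8021.2 and 10191 CPM and the M1 libraries between 2089.7 and 2300.9 CPM, and the wide bar of M2 DMSO comes from replicate 1.

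Between the polarization states, TGM2 was higher in M2 both in DMSO and under MCHP. In DMSO the log2 fold change of M2 over M1 was 2.15 ± 0.069 (SE; 95% interval 2.01 to 2.30), a 4.44-fold difference (edgeR quasi-likelihood test, adjusted p = 8.76e-15). Under MCHP it was 2.13 ± 0.069 (interval 1.99 to 2.27), 4.38-fold (adjusted p = 8.94e-15). Calls were common in these comparisons: 42.5% of all genes tested passed in DMSO, 20.9% higher and 21.6% lower in M2, and 44.6% passed under MCHP, 22.7% higher and 21.9% lower in M2. A larger log2 fold change than that of TGM2 was seen for 222 of 15252 genes in DMSO and for 227 under MCHP. With library size alone, the median log2 fold change of all genes in DMSO was 0.132, against 0.004 with TMM factors. TGM2 then stood at 2.28.

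TGM2 did not pass the test for MCHP in either state with all libraries fitted. In M2 the log2 fold change of MCHP over DMSO was 0.097 ± 0.066, with an interval of -0.041 to 0.235 (edgeR adjusted p = 0.464). In that comparison 5.11% of genes passed. Without M2 DMSO replicate 1 the value was -0.004 (adjusted p = 0.96). The interval of the full comparison leaves out a rise above 1.18-fold, but it does not show that the groups were alike.

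In M1 the log2 fold change of MCHP over DMSO was 0.117 ± 0.066, 1.08-fold, with an interval of -0.021 to 0.256 (edgeR adjusted p = 0.965, unadjusted p = 0.0921). Here 0.0852% of genes passed. The 3 M1 MCHP libraries did not overlap the 3 M1 DMSO libraries, as was so for 8.35% of all genes in this direction. The call depended on which libraries gave the spread. Fitted on the 6 M1 libraries alone, the log2 fold change was 0.115 ± 0.027 (edgeR adjusted p = 0.012), and fitted without M2 DMSO replicate 1 it was 0.117 ± 0.03 (adjusted p = 0.053). The first of these fits called 287 genes, against 13 with all libraries. The difference of the MCHP response, M2 minus M1, was -0.02 ± 0.093 on the log2 scale (interval -0.216 to 0.176, edgeR adjusted p = 0.973), in a test that 0.164% of genes passed.

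Genes with the most similar pattern to TGM2 across the 12 libraries were HSPG2, QSOX1 and SLC29A3. Pearson's r of the log2 CPM was 0.998 for each, and 642 of 9611 candidate genes had an r above 0.95. The libraries share 1 depth scaling and fall into 2 levels by polarization, so the values are a description. HSPG2, which encodes the basement membrane proteoglycan perlecan, averaged 753.3 ± 38.9 CPM in M2 MCHP and 706.3 ± 92.2 in M2 DMSO, against 212.2 ± 6.24 in M1 MCHP and 205.0 ± 9.7 in M1 DMSO. QSOX1, a sulfhydryl oxidase that forms disulfide bonds, averaged 550.7 ± 3.49 CPM in M2 MCHP and 537.5 ± 40 in M2 DMSO, against 293.7 ± 7.93 in M1 MCHP and 289.1 ± 7.34 in M1 DMSO. SLC29A3, a nucleoside transporter of lysosomes, averaged 137.7 ± 2.49 CPM in M2 MCHP and 132.7 ± 16.3 in M2 DMSO, against 47.5 ± 1.69 in M1 MCHP and 47.3 ± 2.05 in M1 DMSO. None of the 3 passed the edgeR test for MCHP in M2 (adjusted p of 0.56, 0.81 and 0.77) or in M1. For the other 3 marker genes no such likeness was computed, as they were below the filter.

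F13A1 (ENSG00000124491, chromosome 6, 6144085 to 6321013, minus strand, 4690 exonic bases) had a single count, in M2 DMSO replicate 2. The other 11 libraries had none, and the count is no sign of a difference between groups. No exonic base of F13A1 is shared with another annotated gene. No count in a group, at 3 counts as the limit, allows up to 0.0647 CPM in M2 MCHP, 0.064 in M1 MCHP and 0.0649 in M1 DMSO, which covers counting error only.

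The transglutaminase list held 10 genes, among them EPB42, a family member without enzyme activity, and F13B, the carrier subunit of factor XIII, which is not a transglutaminase. Of the 3 tested, edgeR with all libraries called TGM2 between the polarization states and neither of the others. TGM3, the epidermal transglutaminase, had 19.1 ± 1.62 CPM in M2 MCHP, 21.4 ± 1.85 in M2 DMSO, 17.2 ± 3.13 in M1 MCHP and 21.1 ± 2.14 in M1 DMSO. Its log2 fold change of M2 over M1 in DMSO was 0.022 ± 0.122 (edgeR adjusted p = 0.9). TGM1, the keratinocyte transglutaminase, stood at 0.924 ± 0.518 CPM in M2 MCHP, 0.903 ± 0.284 in M2 DMSO, 1.73 ± 0.33 in M1 MCHP and 1.48 ± 0.287 in M1 DMSO, with a log2 fold change of M2 over M1 of -0.70 ± 0.376 in DMSO (adjusted p = 0.15) and -0.91 ± 0.373 under MCHP (adjusted p = 0.0572). Under MCHP, 1 list gene was called lower by limma-voom, and by edgeR when M2 MCHP replicate 1 or M2 DMSO replicate 1 was left out. The other 7 were not tested. TGM7 and F13B had no count, TGM6, EPB42 and F13A1 had 1 each, TGM4 had 4 and TGM5 had 35 over all libraries.

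Transcripts encoding proteins that TGM2 is known to bind or modify formed a list of 12, all tested. In DMSO, 5 were higher in M2 and 0 lower, against 20.9% and 21.6% of all genes. The median log2 fold change was 0.31, against 0.004 over all genes. By edgeR's unadjusted p under 0.05, which 49.3% of all genes reached, 7 were higher and 2 lower, and DESeq2 called 5 higher and 1 lower. Without M2 DMSO replicate 1, 7 were higher and 1 lower, and with library size alone 9 were higher. ANXA1, a phospholipid-binding mediator of the resolution of inflammation, averaged 88.1 ± 6.42 CPM in M2 MCHP and 53.5 ± 9.94 in M2 DMSO, against 16.0 ± 1.76 in M1 MCHP and 10.7 ± 0.507 in M1 DMSO. Its log2 fold change of M2 over M1 in DMSO was 2.33 ± 0.124 (edgeR adjusted p = 1.65e-11). MFGE8, which bridges dying cells to integrins on phagocytes, rose by 0.80 ± 0.061 (adjusted p = 3.22e-09). LGALS3, galectin 3, rose by 0.86 ± 0.081, and the chaperone CALR, an eat-me signal on dying cells, by 0.48 ± 0.063. With MCHP in M2, 2 of the 12 were higher and 1 lower, against 2.92% and 2.18% of all genes. ANXA1 rose by 0.72 ± 0.104 (adjusted p = 0.000467) and the proteoglycan SDC4 by 0.25 ± 0.062 (adjusted p = 0.0273), while NFKBIA, the inhibitor of NF-kappa B, fell by 0.24 ± 0.063 (adjusted p = 0.0305). When M2 DMSO replicate 1 was left out, 3 were higher and 2 lower. SDC4 lost the call in the fit on the 6 M2 libraries (adjusted p = 0.22), with library size alone (0.067), and without M2 MCHP replicate 3 (0.17) or M2 DMSO replicate 2 (0.059). NFKBIA lost it in the fit on the 6 M2 libraries (adjusted p = 0.19), when replicate 1 or 3 of M2 MCHP was left out, and when replicate 2 or 3 of M2 DMSO was (adjusted p of 0.053 to 0.12).

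Blood clotting genes of myeloid cells, the setting of F13A1, were a list of 16 with 10 tested. In DMSO, 4 were higher in M2 and 5 lower, against 20.9% and 21.6% of all genes, and the median log2 fold change was -0.077. PROCR, the endothelial protein C receptor, fell by 1.80 ± 0.074 in M2 over M1 in DMSO (edgeR adjusted p = 3.63e-13), the urokinase receptor PLAUR by 0.84 ± 0.068 and tissue factor F3 by 1.08 ± 0.102. With MCHP in M2, 1 of the 10 was higher and 4 lower, against 2.92% and 2.18% of all genes. When M2 DMSO replicate 1 was left out, 5 were lower. The number lower was 2 without M2 MCHP replicate 1 and 1 in the fit on the 6 M2 libraries. F3 averaged 16.9 ± 2.61 CPM in M2 MCHP and 29.7 ± 4.41 in M2 DMSO, a log2 fold change of -0.81 ± 0.111 (adjusted p = 0.000264). PROCR fell by 0.41 ± 0.076 (adjusted p = 0.00312). THBD, thrombomodulin, rose by 0.33 ± 0.071 (adjusted p = 0.0091). Fitted on the 6 M2 libraries alone, PROCR and THBD lost the call (adjusted p of 0.068 and 0.15).

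MAOA (ENSG00000189221, X chromosome, 43654907 to 43746824, plus strand, 5528 exonic bases) had no count in any of the 12 libraries. No exonic base is shared with another annotated gene. With 3 counts as the limit, 0 counts over all libraries allow up to 0.016 CPM. Per kilobase of exon, TGM2 was at least 263000-fold higher than this limit for MAOA. No difference between groups was detectable at this depth, and no test was made. MAOB, its paralog, also had no count, and the longest run of bases that MAOA and MAOB share is 41.

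Other amine-handling enzymes were present. Of 13 listed amine oxidases, aldehyde dehydrogenases and related enzymes, 8 were tested, and MAOA, MAOB and ALDH1A1 had no count. In DMSO, 3 were higher in M2 and 1 lower, against 20.9% and 21.6% of all genes. The number higher was 5 with library size alone and 4 without M2 DMSO replicate 1. The median log2 fold change was 0.14. AKR1B1, an aldose reductase that reduces aldehydes, averaged 205.2 ± 4.41 CPM in M2 MCHP and 172.0 ± 10.2 in M2 DMSO, against 106.3 ± 2.29 in M1 MCHP and 97.8 ± 1.7 in M1 DMSO. It rose by 0.81 ± 0.058 in M2 over M1 in DMSO (edgeR adjusted p = 1.33e-09). AOC1, a diamine oxidase that breaks down histamine, rose by 0.39 ± 0.113 (adjusted p = 0.0096). The call of AOC1 was lost without M2 DMSO replicate 2 (adjusted p = 0.063). The mitochondrial aldehyde dehydrogenase ALDH2 fell by 0.37 ± 0.068 (adjusted p = 0.000194).

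AOC3, a copper amine oxidase also known as vascular adhesion protein, was the amine oxidase that MCHP moved most. Its level was 13.1 ± 0.21 CPM in M2 MCHP and 5.66 ± 1.04 in M2 DMSO, against 7.01 ± 1.23 in M1 MCHP and 7.14 ± 0.498 in M1 DMSO. In M2 it rose with MCHP by 1.2 ± 0.149 on the log2 scale (edgeR adjusted p = 9.34e-05), while the value in M1 was -0.033 ± 0.156 (adjusted p = 0.998). The difference between the responses was 1.24 ± 0.216 (adjusted p = 0.0222), and it lost the call in the 9 fits that left out any 1 library other than M1 MCHP replicate 2 or M2 DMSO replicate 1 or 3 (adjusted p up to 0.084). AKR1B1 rose with MCHP in M2 by 0.25 ± 0.057 (adjusted p = 0.0131), which the fit on the 6 M2 libraries did not call (adjusted p = 0.18).

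CD200R1 (ENSG00000163606, chromosome 3, 112921209 to 112975122, minus strand, 3905 exonic bases) had 1, 5 and 3 counts in M2 MCHP, 5, 3 and 4 in M2 DMSO, 4, 1 and 3 in M1 MCHP, and 3, 5 and 2 in M1 DMSO. All 12 libraries held at least 1 count, and all 4 groups overlapped. The summed counts were 9 in M2 MCHP, 12 in M2 DMSO, 8 in M1 MCHP and 10 in M1 DMSO. The depth-scaled ratio of M2 to M1 was 1.06 in DMSO (exact 95% interval 0.42 to 2.74, counting error only) and 1.07 under MCHP (0.366 to 3.19). The ratio of MCHP to DMSO was 0.799 in M2 (0.297 to 2.07) and 0.792 in M1 (0.272 to 2.23). A rise of more than 2.74-fold in M2 over M1 in DMSO lies outside the interval, and smaller differences were not detectable at this depth. CD200R1 and its paralog CD200R1L, with 23 counts, share a run of 140 identical bases, so the counts of both are uncertain.

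CD200, the ligand of this receptor, had no count. Of 7 genes of this axis, 4 were tested. In M2 over M1 in DMSO, 1 was higher, against 20.9% of all genes. With MCHP in M2, 1 was lower, against 2.18%. With library size alone, and without M2 DMSO replicate 1, 2 were higher in DMSO. The gene in both counts was RASA1, the Ras GTPase-activating protein recruited below the receptor through DOK adaptors. It averaged 175.6 ± 1.2 CPM in M2 MCHP and 215.6 ± 17.2 in M2 DMSO, against 74.2 ± 2.75 in M1 MCHP and 74.5 ± 2.61 in M1 DMSO. RASA1 rose by 1.53 ± 0.065 in M2 over M1 in DMSO (edgeR adjusted p = 6.61e-13) and fell with MCHP in M2 by 0.30 ± 0.063 (adjusted p = 0.00872). The fall was not called in the fit on the 6 M2 libraries (adjusted p = 0.1). The adaptors DOK1 and DOK2 had group means of 31.2 to 34.6 CPM (DOK1) and 3.81 to 4.70 CPM (DOK2), and neither passed a test for polarization or MCHP.

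Of 13 receptor and signalling genes above these targets, 10 were tested, and in DMSO 1 was higher in M2 and 6 were lower, against 20.9% and 21.6% of all genes. The median log2 fold change was -0.31. With library size alone 2 were higher and 4 lower, with a median of -0.19, and without M2 DMSO replicate 1 2 were higher and 5 lower. CISH, a feedback inhibitor induced by STAT signalling, averaged 64.4 ± 3.99 CPM in M2 MCHP and 81.8 ± 8.37 in M2 DMSO, against 5.04 ± 0.293 in M1 MCHP and 6.71 ± 1.08 in M1 DMSO. It rose by 3.61 ± 0.111 in M2 over M1 in DMSO (edgeR adjusted p = 5.07e-15). JAK2 fell by 1.32 ± 0.064 (adjusted p = 4.35e-12), the phosphatase PTPN6 by 0.95 ± 0.073 and the receptor chain IL13RA1 by 0.70 ± 0.056. The IL4R chain averaged 159.0 ± 6.27 CPM in M2 MCHP and 152.9 ± 16.9 in M2 DMSO, against 185.4 ± 3.93 in M1 MCHP and 187.0 ± 4.72 in M1 DMSO. Its call in DMSO (adjusted p = 0.00245) was lost with library size alone (adjusted p = 0.051). The call of SOCS1, another feedback inhibitor, counted among the 6, was lost in 7 of 13 alternatives (adjusted p up to 0.17). IL2RG and JAK3, which carry the gamma-chain form of the receptor, had 27 and 5 counts over all libraries, and 50.8% of the exonic bases of IL2RG are shared with another annotated gene. The decoy receptor IL13RA2 had 2 counts. With MCHP in M2, STAT6 fell by 0.24 ± 0.058 (adjusted p = 0.0206) and CISH by 0.34 ± 0.088 (adjusted p = 0.029). With all libraries 2 of the 10 were lower, against 2.18% of all genes, and with M2 DMSO replicate 1 left out 3 were. STAT6 lost the call in the fit on the 6 M2 libraries (adjusted p = 0.15), when replicate 1 or 2 of M2 MCHP was left out, and when replicate 2 of M2 DMSO was (adjusted p up to 0.083). CISH lost it in that fit (adjusted p = 0.12), when replicate 1 or 3 of M2 MCHP was left out, and when replicate 2 or 3 of M2 DMSO was (adjusted p up to 0.13).

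Of 9 transcription factors known to respond to IL-4, 8 were tested. In DMSO, 4 were higher and 1 lower in M2, against 20.9% and 21.6% of all genes, with a median log2 fold change of 0.18. PPARG, the lipid-activated nuclear receptor, averaged 91.2 ± 5.76 CPM in M2 MCHP and 104.5 ± 20.5 in M2 DMSO, against 22.6 ± 1.31 in M1 MCHP and 28.97 ± 2.85 in M1 DMSO. It rose by 1.85 ± 0.113 in M2 over M1 in DMSO (edgeR adjusted p = 1.35e-10). ZNF366, a repressor found in dendritic cells, rose by 1.51 ± 0.1 and EGR2 by 0.43 ± 0.056, while BATF3, a factor of dendritic cell development, fell by 1.23 ± 0.146. IRF4 had 14 counts and was not tested. For MCHP in M2, 0 of the 8 passed by edgeR, DESeq2 or limma-voom, 2 were lower by edgeR's unadjusted p under 0.05, and 2 were called lower without M2 DMSO replicate 1.

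TGM2 was set beside 35 other genes reported as IL-4 or IL-13 induced in macrophages, 23 of which were tested. In DMSO, 12 were higher in M2 and 6 lower, against 20.9% and 21.6% of all genes, with a median log2 fold change of 0.69. Under MCHP 13 were higher and 6 lower, against 22.7% and 21.9%. Without M2 DMSO replicate 1, 13 were higher and 7 lower in DMSO. CCL22, a chemokine that draws T cells, averaged 1214 ± 53.6 CPM in M2 MCHP and 741.7 ± 97.7 in M2 DMSO, against 14.2 ± 1.36 in M1 MCHP and 12.3 ± 1.37 in M1 DMSO. It rose by 5.92 ± 0.111 in M2 over M1 in DMSO (edgeR adjusted p = 7.24e-18). CD209, the lectin DC-SIGN, rose by 1.59 ± 0.076 and PTGS1, cyclooxygenase 1, by 1.05 ± 0.048. ALOX15, the lipoxygenase of the IL-4 response, rose by 5.10 ± 0.399 at a low level, 7.25 ± 0.41 CPM in M2 MCHP and 11.8 ± 2.83 in M2 DMSO, against 0.279 ± 0.258 in M1 MCHP and 0.346 ± 0.333 in M1 DMSO. The lectin CLEC10A went the other way, at 0.708 ± 0.204 CPM in M2 MCHP and 1.43 ± 0.124 in M2 DMSO, against 18.1 ± 0.771 in M1 MCHP and 22.3 ± 0.44 in M1 DMSO. In DMSO it fell by 3.96 ± 0.143. The 12 untested genes had 0 to 38 counts each over all libraries, MRC1, CCL17 and CCL18 among them with 2, 12 and 1. Most listed markers of the M1 agents were lower in M2 in DMSO, 16 of 17 tested, against 21.6% of all genes. The exception was the chemokine CCL5, which rose by 0.92 ± 0.051.

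Some marker genes of cell types were also called between the polarization states, in a comparison where 20.9% of all genes were higher and 21.6% lower. Their part in these results was not tested. In M2 over M1 in DMSO, 2 of 9 tested macrophage markers were higher and 5 lower, 3 of 7 markers of undifferentiated monocytes were higher and 1 lower, and 3 of 6 dendritic cell markers were higher and 1 lower. Of the tested markers, 2 of 4 for megakaryocytes and platelets were higher, and for fibroblasts and endothelium 2 of 4 were higher and 1 lower. The summed level of the megakaryocyte and platelet markers was 12.1 to 14.9 CPM in M2 MCHP and 14.02 to 18.3 in M2 DMSO, against 6.82 to 8.52 in M1 MCHP and 5.60 to 8.15 in M1 DMSO. That of the monocyte markers was 30.1 to 32.7 CPM in M2 MCHP and 25.5 to 31.2 in M2 DMSO, against 64.0 to 69.6 in M1 MCHP and 71.4 to 74.6 in M1 DMSO. The monocyte sum was thus lower in M2, while the median log2 fold change of its 7 tested genes in DMSO was 0.369. The 1 gene called lower was CEBPE, at -2.10 to -1.88 over the alternatives. Of the 3 monocyte markers called higher in DMSO, MYB and MPO lost the call in 7 and 6 of 13 alternatives. The number higher was 2 by DESeq2 and without M2 DMSO replicate 1, and 1 in 4 other fits. Leaving out M2 DMSO replicate 1 gave 3 macrophage and 4 dendritic cell markers higher, and leaving out replicate 3 gave 1 macrophage marker higher.

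**Figure D3:**
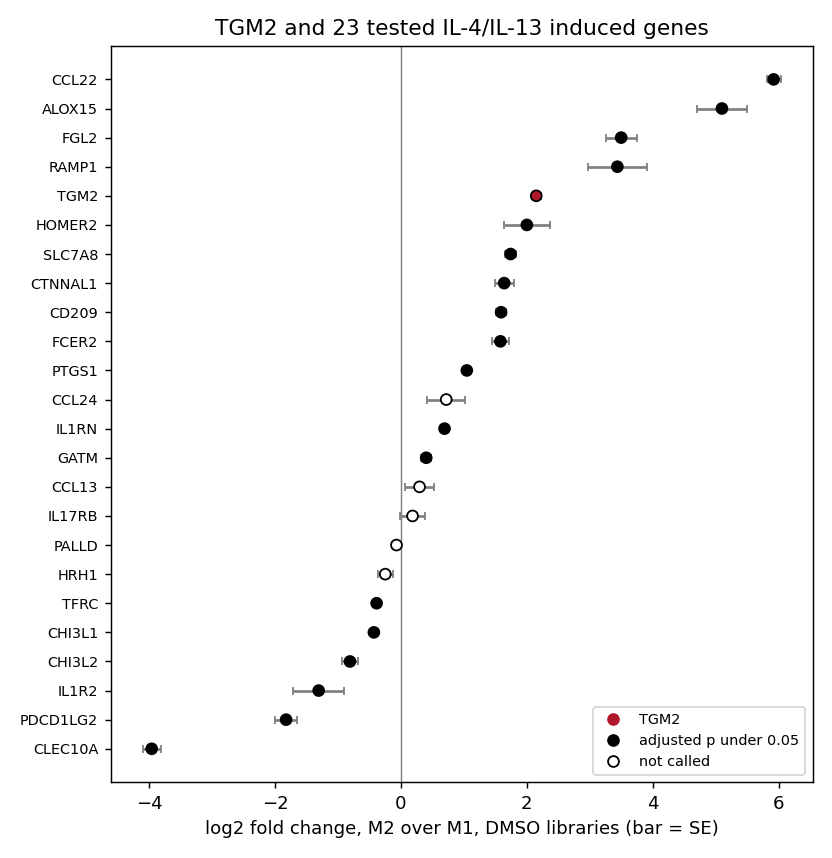
Log2 fold change of M2 over M1 in DMSO libraries (horizontal axis, bar = SE) for TGM2 and the 23 tested genes of the list, ordered by value, with filled points for an adjusted p under 0.05. TGM2 at 2.15 comes after CCL22 at 5.92 and 3 others, and CLEC10A lies lowest at -3.96.

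MCHP changed some of these genes in M2 in both directions, 3 higher and 5 lower of 23, against 2.92% and 2.18% of all genes, with a median log2 fold change of -0.10. The number higher was 1 in 9 of 13 alternatives, and without M2 DMSO replicate 1 it was 3, with 6 lower. CCL22 rose by 0.71 ± 0.083 (edgeR adjusted p = 5.63e-05). CD209 had 109.7, 111.4 and 100 CPM in M2 MCHP and 151.3, 173.3 and 159.2 in M2 DMSO, and averaged 60.6 ± 4.48 CPM in M1 MCHP and 53.5 ± 3.21 in M1 DMSO. It fell by 0.59 ± 0.073 in M2 (adjusted p = 9.22e-05), and the M2 response was lower than the M1 response by 0.77 ± 0.106 on the log2 scale (adjusted p = 0.00301). CCL13, a monocyte-attracting chemokine, fell by 1.32 ± 0.249 (adjusted p = 0.00372) from a low level, 1.93 ± 0.658 CPM in M2 MCHP and 4.77 ± 0.967 in M2 DMSO. CHI3L1, a chitinase-like secreted protein, fell by 0.32 ± 0.059 (adjusted p = 0.00324), a call lost in the fit on the 6 M2 libraries (adjusted p = 0.071). SLC7A8, an amino acid transporter, had log2 fold changes of 0.28 ± 0.079 in M2 (adjusted p = 0.0476) and -0.45 ± 0.103 in M1 (adjusted p = 0.153). Its response in M2 exceeded that in M1 by 0.73 ± 0.129 (adjusted p = 0.0222), a call lost in the 9 fits that left out 1 library other than those of M2 DMSO (adjusted p up to 0.1). The call of SLC7A8 in M2 was lost in 10 of 13 alternatives. Among them were library size alone (adjusted p = 0.1), the fit on the 6 M2 libraries (0.2), and each fit that left out 1 M2 library other than M2 DMSO replicate 1. That of TFRC, the transferrin receptor, was lost in 9 of 13. Among these were library size alone (adjusted p = 0.14) and the fit on the 6 M2 libraries (0.32). The fits without replicate 1 or 2 of M2 MCHP or replicate 2 or 3 of M2 DMSO (up to 0.15) also lost it.

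**Figure D4:**
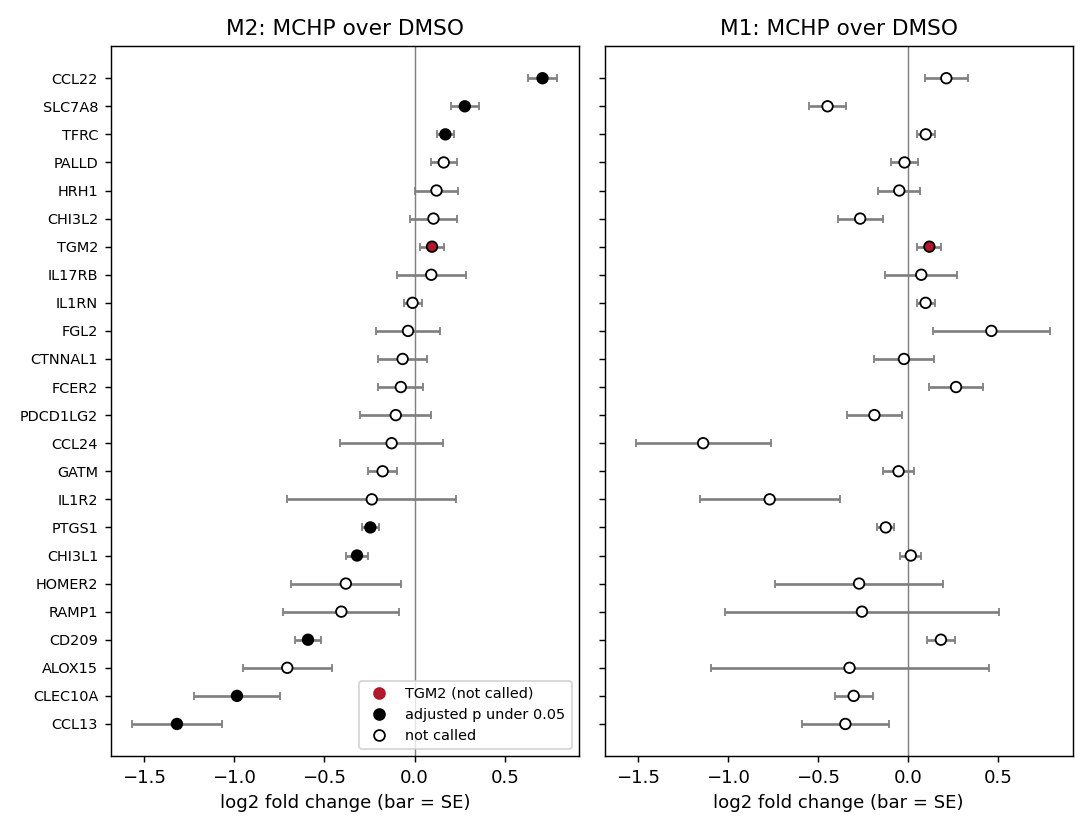
Log2 fold change of MCHP over DMSO (horizontal axes, bar = SE) in M2 (left) and M1 (right) for TGM2 and the same 23 genes, in the order of the M2 values. Filled points passed an adjusted p of 0.05: 8 of 23 genes in M2, from CCL22 at 0.71 to CCL13 at -1.32, and 0 in M1, while TGM2 passed in neither.

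All lists together held 124 tested genes besides TGM2. They were chosen with earlier results of these data known, so the shares below are a description. In M1, MCHP moved 0 of the 124 past the threshold by edgeR, where 0.0852% of all genes passed. By edgeR's unadjusted p under 0.05, 25 of the 124 passed, 8 higher and 17 lower, against 5.36% of all genes. DESeq2 called 1 higher and 2 lower, limma-voom called 0 higher and 1 lower, and edgeR without M2 DMSO replicate 1 called 4 higher and 7 lower. In M2, 8 of the 124 were called higher and 17 lower, against 2.92% and 2.18% of all genes. When M2 DMSO replicate 1 was left out, 11 were higher and 27 lower.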

How the data were processed

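RNA was sequenced from 12 libraries of polarized (PPRE)-eGEP-THP-1 cells, 3 in each of 4 groups. Per the labels' protocols, mRNA was taken on poly-T beads and cDNA was primed at random. Per the file headers, the deposited values are read counts per gene with gene lengths beside them, and they are whole numbers that were not normalized. Named in the submitters' processing notes, without their roles, are the build hg38 and the tools featureCounts 1.5.0-p3, HISAT2 2.0.5, fastp and StringTie 1.3.3b. The strand setting is not given in the sources used here, so reads of overlapping genes cannot be told apart.

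Counts were tested in R 4.3.3 with edgeR 4.0.16: filterByExpr over the 4 groups (minimum count 10), TMM factors, all 12 libraries with 1 mean per group (8 residual degrees of freedom), two-sided quasi-likelihood F-tests, and Benjamini-Hochberg adjustment over 15252 genes with a threshold of 0.05. The 5 contrasts were MCHP against DMSO in M2 and in M1, their difference (M2 minus M1), and M2 against M1 in DMSO and under MCHP. Contrasts share libraries, and each is given by its own values. Intervals are 95%, and standard errors come from the F statistic. Ratios of a few counts carry exact binomial intervals, and a count of 0 has a limit of 3 counts. The binomial intervals and the limits cover counting error only. TPM used the deposited lengths. Exon overlaps and coding sequences come from GENCODE 29, whose positions and lengths for the 4 genes equal those in the table.

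A total of 14 gene lists with 182 genes, 5 of them cell type markers, was used. The members and lists were chosen with earlier results of these data known. Named were the 4 members, up to 4 called list genes with the smallest p per comparison, list genes near 0, and the 3 genes most like TGM2 (log2 of CPM plus 0.5, protein-coding, mean of at least 5 CPM). IL4R, ALOX15, CCL5, SLC7A8, TFRC, SOCS1, MYB, MPO, PECAM1, COL1A1, VWF, DOK1 and DOK2 were named after their values were seen. Some genes that the rule names are not reported here.

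Alternatives were scaling by library size alone or by the DESeq2 method, no filter, a replicate block, DESeq2 1.42.0, limma-voom (limma 3.58.1), the compared libraries only, and each library left out in turn. Leaving out M2 DMSO replicate 1 where its group is not compared, and in the list counts, was chosen after seeing the data.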

Additional observations from a re-analysis of the deposited data

Results flagged for a closer look

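For 3 listed genes the MCHP response differed between the polarization states by the test of the difference itself (edgeR, M2 minus M1, 0.164% of all genes passed). For CD209 the difference was -0.77 on the log2 scale. For SLC7A8 it was 0.73, and limma-voom put its adjusted p at 0.052. For AOC3 it was 1.24, with an adjusted p of 5.3e-05 to 0.084 over the alternatives.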

How the results depend on the processing

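TGM2 stayed called and higher in M2 under all alternatives run in both polarization comparisons, at 2.09 to 2.28 in DMSO and 2.12 to 2.22 under MCHP (log2). For MCHP in M1 its value was 0.109 to 0.125, and it passed only in the fit of the M1 libraries alone (0.115). For MCHP in M2 it was 0.16 or less, and it turned to -0.004 without M2 DMSO replicate 1. The difference of responses turned to 0.043 and 0.024 without M2 DMSO replicates 2 and 3, and stood at -0.122 without replicate 1. The count of genes called moved most. For MCHP in M1 it was 13, against 76 with no filter, 5 with the replicate block, 50 by DESeq2, 287 in the M1 libraries alone and 1 to 160 with 1 library left out. For MCHP in M2 it was 779, against 177 in the M2 libraries alone and 386 to 1747 with 1 left out. For the difference it was 25, against 170 with no filter, 96 by DESeq2 and 6 to 385 with 1 left out. The highest of each range came without M2 DMSO replicate 1, and the cause was not tested. Deviations of libraries with the same number correlated at -0.057 to 0.053 over all tested genes. This does not show whether the numbers mark a shared batch, which the labels do not say either. With the replicate block TGM2 stood at 2.15, 2.13, 0.101, 0.117 and -0.016 for M2 over M1 in DMSO and under MCHP, MCHP in M2, MCHP in M1 and the difference, and none of these calls changed. Ratios of CD200R1 rest on 8 to 12 counts a group, which limits them more than any setting.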
